A study of Mus musculus with 6 samples.

Results

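The 41 genes described here sense DNA damage and repair broken strands. They were chosen by name, as checkpoint, homologous recombination, Fanconi, end joining and mismatch repair genes, with earlier results of these data known. A row for each of the 41 was found among the 23284 gene symbols of every library, and all 41 passed the filter on low counts that left 10512 genes for testing. By role, 9 encode checkpoint kinases and their activators, 7 act at broken chromatin, 10 in homologous recombination, 7 in the Fanconi pathway, 6 in end joining and single-strand break repair, and 2 in mismatch or post-replication repair.

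The libraries hold polyadenylated RNA of erythroblasts (red cell precursors that still have a nucleus) from C57BL/6 mouse embryos at embryonic stage E10.5. Live cells positive for Ter119 (a red cell surface antigen) and CD71 (the transferrin receptor) had been collected by flow sorting. The Setd8 null group (n = 3) had the genotype SETD8fl/fl EpoR Cre, in which Cre recombinase driven from the erythropoietin receptor locus removes floxed Setd8 in erythroid cells. The control group (n = 3) held Setd8 +/+ EpoRCre cells in replicates 1 and 3, which carry Cre and no floxed allele, and Setd8 fl/fl EpoR WT cells in replicate 2, which carry floxed alleles and no Cre. Labels and design text disagree on the tissue: the first names fetal liver and the second fetal blood. The sources used here do not say whether a library came from 1 embryo or several.

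Setd8 (Kmt5a) monomethylates histone H4 at lysine 20, a residue that the repair machinery reads. Broken DNA is first bound by the complex of Mre11, Rad50 and Nbn, which recruits the kinase Atm, whereas single-stranded DNA at stalled replication forks recruits Atr through Atrip. Both kinases phosphorylate checkpoint kinases that halt the cell cycle, and histone H2AX, to which Mdc1 and the ubiquitin ligases Rnf8 and Rnf168 are then drawn. Breaks are resected and copied from the sister chromatid in homologous recombination, or rejoined directly by end joining. Many genes of these pathways are transcribed mainly in cells that replicate their DNA, as early erythroblasts do.

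Gene counts summed to 21381086, 16547029 and 15203019 in null replicates 1, 2 and 3 and to 7756940, 21434719 and 19806956 in control replicates 1, 2 and 3. Levels below are CPM, counts per 1000000 reads after TMM scaling of the libraries. Sample titles fell into those with no trailing letter (null replicate 1 and control replicates 1 and 2, the unlettered set) and those with one (null replicates 2 and 3 and control replicate 3, the lettered set). Between these sets 1142 genes were higher and 1859 lower in the unlettered set (10.9% and 17.7% of those tested). The comparison was therefore made with the title set as a term beside group (set-adjusted), and again with group alone. Setd8 stood at 48.9, 100 and 96.3 CPM in the null replicates and at 73.9, 74.8 and 203 CPM in the controls, so that it was below its own set's controls in every null library (set-adjusted log2 ratio -0.83, SE 0.17, edgeR quasi-likelihood adjusted p = 0.00911). With group alone its log2 ratio was -0.52 (SE 0.49, edgeR adjusted p = 0.702), and the groups overlapped. Counts cover the whole gene and cannot separate intact from recombined transcript. Summed Y-linked transcripts stood at 164, 137 and 120 CPM in the null libraries and at 117, 0.479 and 0 CPM in control replicates 1, 2 and 3. They were almost absent from 2 of the 3 controls and present in every null library. Within the lettered set, group and Y-linked level therefore cannot be told apart. In the unlettered set only control replicate 1 separates them.

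Most of the 41 genes were lower in Setd8 null erythroblasts, by modest amounts. Set-adjusted, 5 fell and 0 rose by edgeR's quasi-likelihood test with Benjamini-Hochberg adjustment over all genes at 0.05, called edgeR adjusted p below. Those that fell were the checkpoint kinase gene Chek1, the break-site adaptor gene Mdc1, the nuclease genes Mre11a and Exo1, and the mismatch repair gene Msh6. That is 12.2% of the 41, where 4.16% of all tested genes fell and 8.65% rose (12.8% passed in either direction). The set-adjusted log2 ratio was below 0 for 34 of the 41 genes (82.9%), against 47.6% of all tested genes, and its median was -0.39, against 0.044 over all tested genes.

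**Figure D1:**
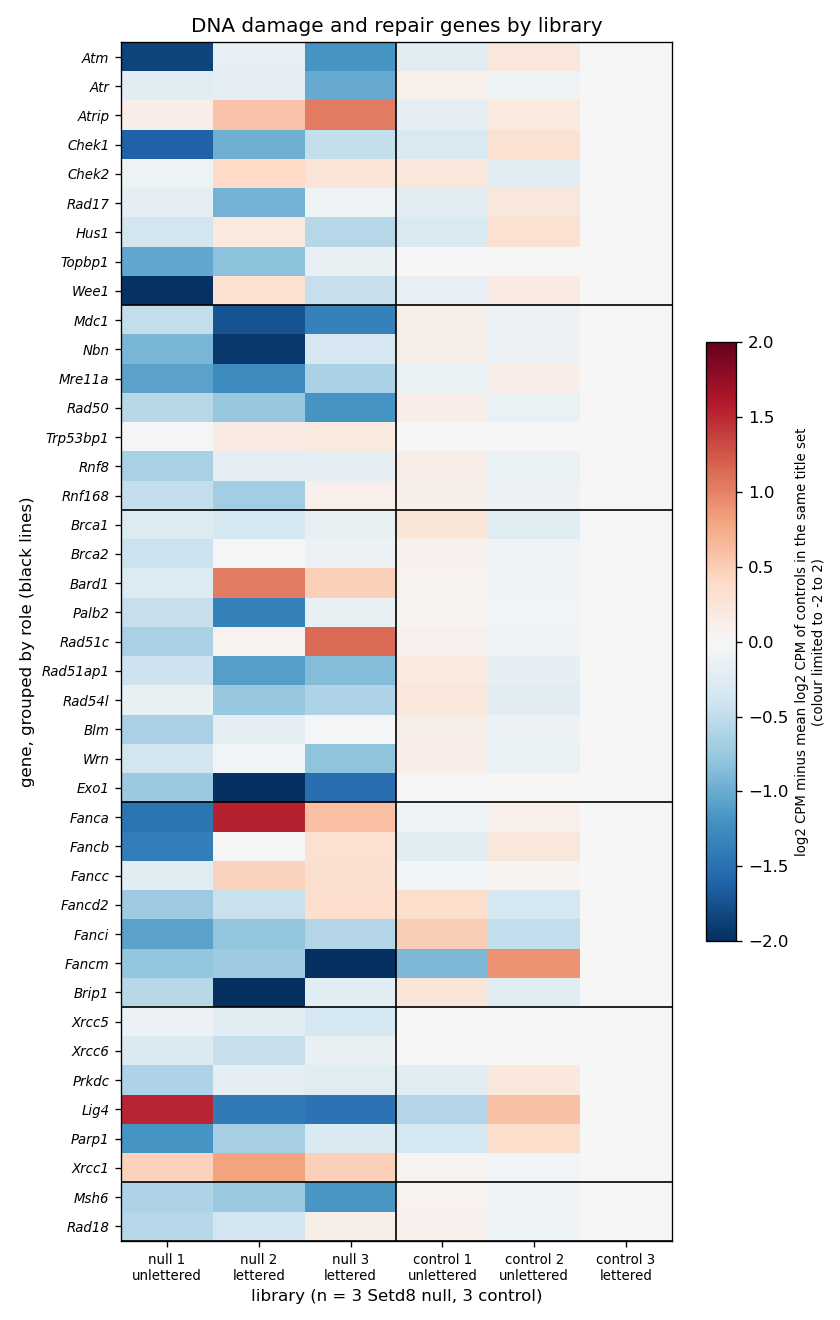
Each row is a gene and each column a library. Colour gives log2 CPM minus the mean log2 CPM of the controls of the same title set, limited to -2 to 2; control 3 is the only control of its set and is 0 by construction. Blue prevails in the 3 null columns, Xrcc1 and Atrip are red in all 3, and Fanca and Lig4 change colour between the sets.

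The same direction was seen library by library. Null libraries were all lower than every control for 10 of the 41 genes (24.4%), against 9.16% of all tested genes, and in 1 gene, Xrcc1 (2.44%), every null library lay above, against 14.9%. Set against the controls of their own title set, every null library was lower in 23 genes (56.1%), where 21.5% of all tested genes were, and higher in 1 (2.44%), where 25.7% were. Summed over the 41 genes, the level was 930, 1106 and 1224 CPM in the null libraries and 1350, 1325 and 1521 CPM in the controls. The groups did not overlap in this sum. By raw library totals, without TMM scaling, the sums were 744, 1302 and 1558 CPM in null cells and 1175, 1161 and 1651 CPM in controls, and the groups overlapped. Fewer cells that express a gene and less of its RNA per cell cannot be told apart in such bulk samples.

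The number of calls rested on the model and on single libraries. With group alone, 0 of the 41 genes passed edgeR's test in either direction, where 0.00951% of all genes fell and 1.14% rose. At an unadjusted p under 0.05, 7 were lower and 0 higher in that fit, 17.1% of the 41, against 4.99% of all genes for lower. DESeq2, also set-adjusted, called 9 lower and 0 higher, where 8.39% of all genes were lower and 12% higher. When libraries were left out one at a time, 7 of the 41 genes were called lower in the absence of null replicate 3, where 6.68% of all genes were, and 2 in the absence of control replicate 3, where 1.62% were. Each of the other 4 omissions left 1, Exo1, where 0.368% (null replicate 1), 2.13% (null replicate 2), 1.98% (control replicate 1) and 1.92% (control replicate 2) of all genes were called lower.

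**Figure D2:**
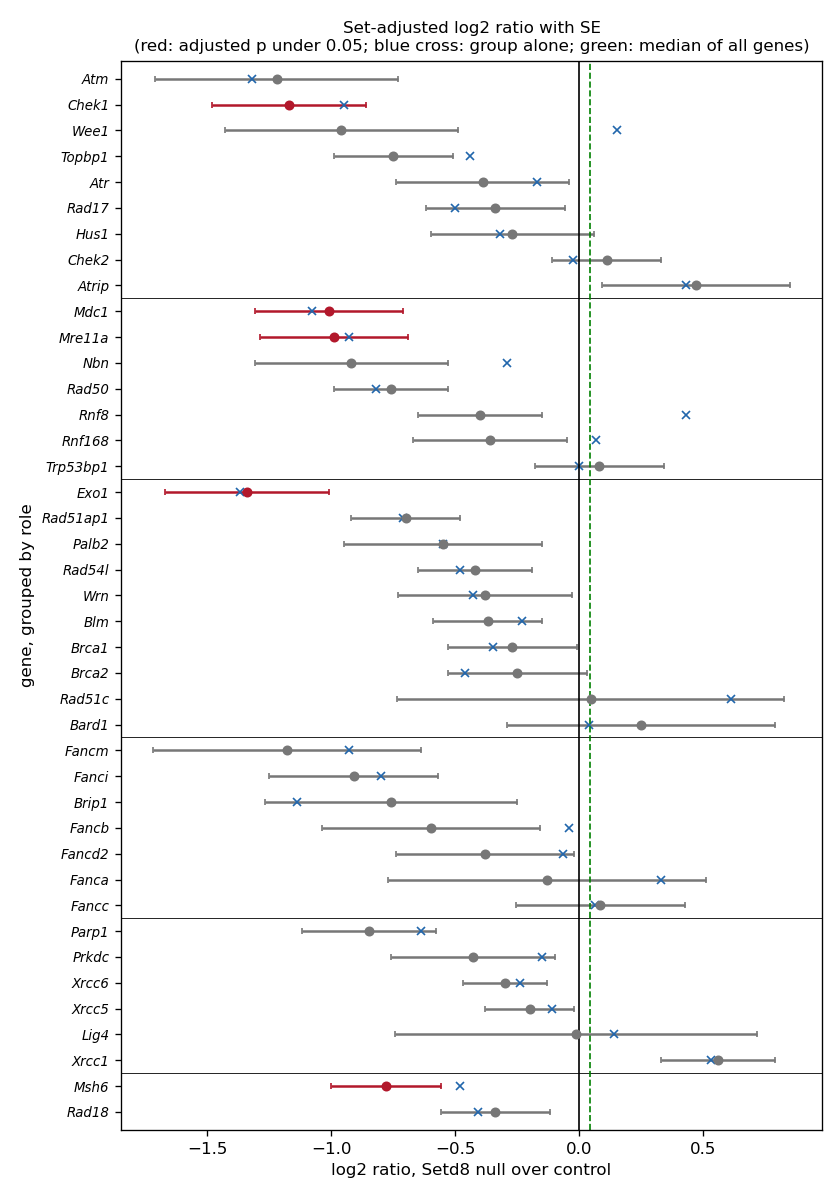
Set-adjusted log2 ratio of Setd8 null over control for each gene (points, with SE as bars), by role. The 5 genes with an edgeR adjusted p under 0.05 are red, blue crosses give the ratio with group alone, and the green line marks the median of all tested genes at 0.044.

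Among the 9 checkpoint genes 1 fell and 0 rose set-adjusted, where 4.16% of all tested genes fell and 8.65% rose. The median log2 ratio was -0.39 set-adjusted and -0.32 with group alone. Chek1, the kinase that Atr activates to hold cells before mitosis, had 16.4, 26.2 and 37.1 CPM in the null replicates and 40.8, 62.1 and 51.4 CPM in the controls. Every null library lay below every control. Its set-adjusted log2 ratio was -1.17 (SE 0.31, edgeR adjusted p = 0.0301), and with group alone -0.95 (edgeR adjusted p = 0.283). The call was lost without control replicate 1 or 2 or null replicate 1 or 2, at edgeR adjusted p = 0.0542 to 0.349. The sister kinase Chek2, which acts downstream of Atm, did not share this: it stood at 64.0, 62.3 and 56.1 CPM in null cells and 80.3, 58.5 and 47.1 CPM in controls, with a log2 ratio of 0.11 (SE 0.22), and the groups overlapped.

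Atm, the kinase that responds to double-strand breaks, had 5.14, 9.45 and 4.70 CPM in null cells and 16.0, 21.7 and 10.6 CPM in controls. The groups did not overlap, but the libraries varied widely and the gene did not pass (log2 ratio -1.22, SE 0.49, edgeR adjusted p = 0.131). Topbp1, which activates Atr, had 33.1, 52.4 and 83.6 CPM in null cells and 68.5, 68.2 and 93.0 CPM in controls. It was below its own set's controls in every null library and overlapped across sets (log2 ratio -0.75, SE 0.24, edgeR adjusted p = 0.0663). Without null replicate 3 it passed (edgeR adjusted p = 0.00798). Without the other libraries in turn it did not (edgeR adjusted p = 0.0876 to 0.476, the highest at a log2 ratio of -0.46 without null replicate 1). It also passed with no filter and without globins (edgeR adjusted p = 0.0101 and 0.0485) and by DESeq2 (DESeq2 adjusted p = 0.0189). With group alone the log2 ratio was -0.44 (edgeR adjusted p = 0.662). Atr itself had a log2 ratio of -0.39 (SE 0.35) and its partner Atrip 0.47 (SE 0.38), and neither passed. Rad17, which loads the checkpoint clamp onto DNA, and Hus1, a subunit of that clamp, stood at -0.34 (SE 0.28) and -0.27 (SE 0.33).

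Wee1 encodes the kinase that restrains Cdk1 before mitosis. It had 3.92, 44.5 and 26.2 CPM in null cells and 13.9, 17.3 and 36.0 CPM in controls. Null replicate 1 was the lowest of all libraries and null replicate 2 the highest, so that the log2 ratio was -1.95 within the unlettered set and -0.074 within the lettered set. Set-adjusted it was -0.96 (SE 0.47, edgeR adjusted p = 0.212), with group alone 0.15, without control replicate 3 -2.01 (edgeR adjusted p = 0.0452) and without null replicate 1 -0.033 (edgeR adjusted p = 0.983).

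Of the 7 genes that act at broken chromatin, 2 fell and 0 rose, where 4.16% of all tested genes fell and 8.65% rose. Set-adjusted, the median log2 ratio of -0.76 was the lowest of the 6 roles. The median was -0.29 with group alone, above the -0.44 of homologous recombination in that fit. All 3 subunits of the complex that binds broken ends were lower in every null library than in the controls of the same set. Mre11a, its nuclease, had 13.1, 12.4 and 18.9 CPM in null cells and 25.2, 30.0 and 29.5 CPM in controls, with no overlap. The log2 ratio was -0.99 (SE 0.30, edgeR adjusted p = 0.0477), with group alone -0.93 (edgeR adjusted p = 0.229). Its adjusted p lay close to the threshold, and the call held without null replicate 3 alone of the 6 libraries (edgeR adjusted p = 0.0824 to 0.281 in the other fits).

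Rad50, the ATPase that tethers the ends, had 36.6, 31.1 and 23.3 CPM in null cells and 58.7, 49.3 and 52.7 CPM in controls. The groups did not overlap and the gene lay just past the threshold (log2 ratio -0.76, SE 0.23, edgeR adjusted p = 0.0511). Scaling by RLE size factors, or leaving globin genes out, gave an edgeR adjusted p of 0.0433 and 0.0424, leaving out 1 library 0.0615 to 0.324, and group alone 0.225. Rad50 passed as well with no filter (edgeR adjusted p = 0.0213) and by DESeq2 (DESeq2 adjusted p = 0.0139). The subunit Nbn, which recruits Atm, followed the title sets: it had 5.55, 13.1 and 39.6 CPM in null cells and 11.3, 9.69 and 50 CPM in controls. Set-adjusted its log2 ratio was -0.92 (SE 0.39, edgeR adjusted p = 0.156), and without null replicate 3 it passed at -1.43 (edgeR adjusted p = 0.0242). Without any of the other 5 libraries it did not pass (edgeR adjusted p = 0.188 to 0.440). With no filter it passed (edgeR adjusted p = 0.0399), and with group alone the log2 ratio was -0.29 (edgeR adjusted p = 0.919).

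Mdc1, the adaptor that binds phosphorylated H2AX, had 22.3, 10.4 and 13.5 CPM in null cells and 34.1, 29.1 and 34.4 CPM in controls. Every null library lay below every control. The log2 ratio was -1.01 (SE 0.30, edgeR adjusted p = 0.0455), and with group alone -1.08 (edgeR adjusted p = 0.230). The call was lost without any 1 of the 6 libraries, at edgeR adjusted p = 0.0547 to 0.469, highest without control replicate 3. The ubiquitin ligases that act after Mdc1 did not pass: Rnf8 had a log2 ratio of -0.40 (SE 0.25) and Rnf168 of -0.36 (SE 0.31). Trp53bp1, which shields ends from resection and binds methylated lysine 20 of histone H4, had 24.1, 21.8 and 22.3 CPM in null cells and 24.6, 24.3 and 19.4 CPM in controls. Its groups overlapped and its log2 ratio of 0.081 (SE 0.26) was the smallest in size of this role; 22.1% of its annotated exon bases are shared with Tubgcp4 on the other strand, whose reads cannot be told apart without a stated strand setting.

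**Figure D3:**
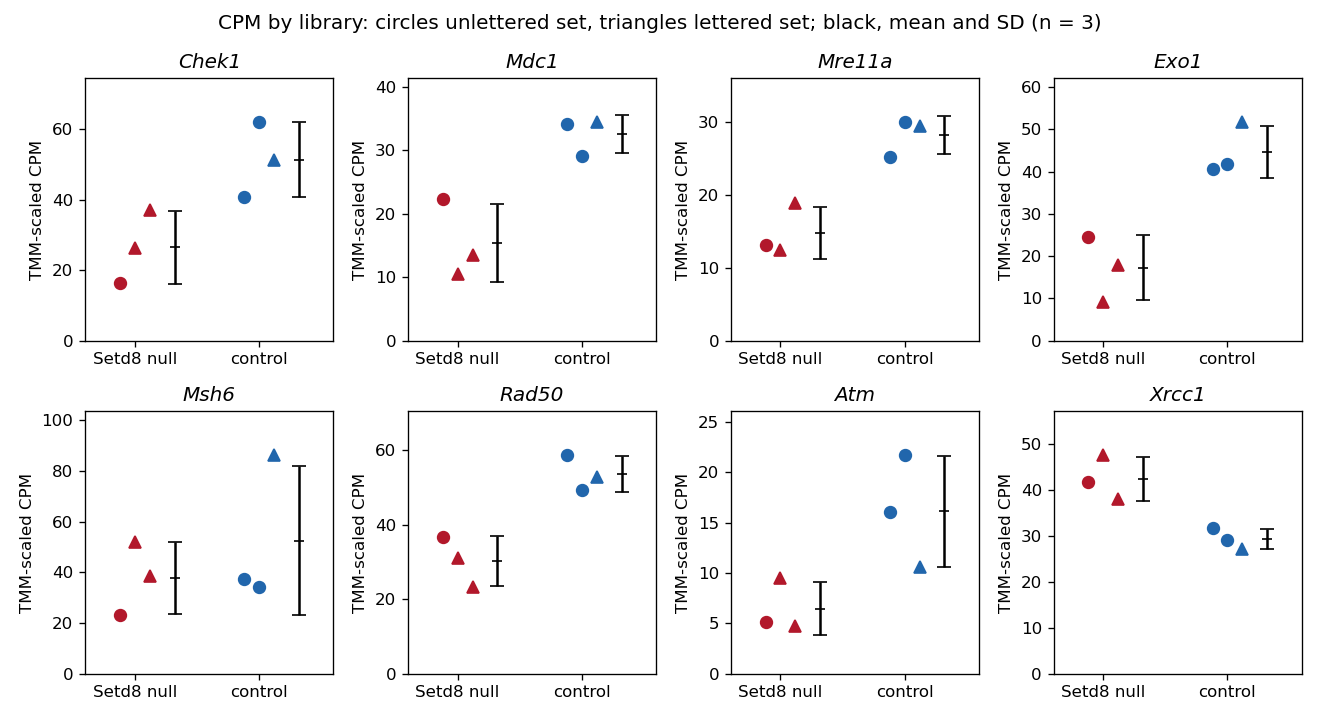
TMM-scaled CPM in each library for 8 genes, with Setd8 null on the left and control on the right. Circles are unlettered and triangles lettered libraries, and black marks give mean and SD (n = 3 each). Chek1, Mdc1, Mre11a, Exo1, Rad50 and Atm do not overlap, Msh6 overlaps because its level differs between the sets, and Xrcc1 is higher in all null libraries.

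Of the 10 homologous recombination genes 1 fell and 0 rose, where 4.16% of all tested genes fell and 8.65% rose. The median log2 ratio was -0.38 set-adjusted and -0.44 with group alone. Exo1, an exonuclease that resects breaks and excises mismatched strands, had the most negative ratio of all 41 genes. It had 24.5, 9.19 and 17.9 CPM in null cells and 40.6, 41.7 and 51.7 CPM in controls, and its mean was 17.2 ± 7.70 CPM in null cells and 44.7 ± 6.10 CPM in controls (SD, n = 3 each). The set-adjusted log2 ratio was -1.34 (SE 0.33, edgeR adjusted p = 0.0210), a level of 0.395 times the control, and with group alone -1.37 (edgeR adjusted p = 0.166). Of the fits without 1 library it lost its call without control replicate 3 only (log2 ratio -0.76, edgeR adjusted p = 0.340).

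Rad51ap1, which stimulates strand exchange, had 44.7, 33.2 and 39.0 CPM in null cells and 68.8, 52.0 and 70.9 CPM in controls. The groups did not overlap, and the gene lay just past the threshold (log2 ratio -0.70, SE 0.22, edgeR adjusted p = 0.0581). By RLE size factors the edgeR adjusted p was 0.0484, with no filter 0.0202 and without globins 0.0493. Without 1 library it was 0.0514 to 0.414, and with group alone 0.260. By DESeq2 the gene passed too (DESeq2 adjusted p = 0.0218). The motor protein gene Rad54l had a log2 ratio of -0.42 (SE 0.23) and the helicase gene Blm of -0.37 (SE 0.22), and neither passed.

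The breast cancer susceptibility genes did not pass. Brca1 had 28.2, 22.8 and 26.2 CPM in null cells and 40.3, 28.9 and 29.0 CPM in controls, and Palb2, whose product bridges Brca1 and Brca2, had 10.8, 6.16 and 14.2 CPM in null cells and 15.4, 14.4 and 15.7 CPM in controls. In both, and in the helicase gene Wrn (12.7, 14.3 and 8.48 CPM in null cells, 18.1, 14.9 and 14.8 CPM in controls), every null library lay below every control, although by a narrow margin. The log2 ratios were -0.27 (SE 0.26) for Brca1, -0.55 (SE 0.40) for Palb2 and -0.38 (SE 0.35) for Wrn, with edgeR adjusted p of 0.552, 0.415 and 0.543. Brca2, a mediator of strand exchange, had a log2 ratio of -0.25 (SE 0.28). Bard1, the partner of Brca1, stood at 0.25 (SE 0.54), and the recombination gene Rad51c had the smallest ratio in size of this role, 0.046 (SE 0.78).

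None of the 7 Fanconi genes passed in either direction, where 4.16% of all tested genes fell and 8.65% rose. Set-adjusted, 6 of the 7 ratios were below 0, where 47.6% of all tested genes were, and the median was -0.60. The median was -0.065 with group alone. Fanci, a subunit of the clamp that is ubiquitinated at crosslinks, had 11.3, 15.1 and 17.3 CPM in null cells and 33.2, 16.8 and 26.1 CPM in controls (log2 ratio -0.91, SE 0.34, edgeR adjusted p = 0.109). Null replicate 3 was above control replicate 2, so that the groups overlapped. Of its annotated exon bases 13.4% are shared with Polg on the other strand, as are 8.62% of those of Fanca with Zfp276, 1.8% of those of Mre11a with Ankrd49 and 0.8% of those of Msh6 with Fbxo11. Fancd2, its partner, had a log2 ratio of -0.38 (SE 0.36). The largest ratio in size belonged to Fancm, the translocase that finds stalled forks, with 5.84, 14.3 and 4.86 CPM in null cells and 5.34, 18.5 and 23.6 CPM in controls. Control replicate 1, the shallowest library, was below null replicates 1 and 2, and the gene did not pass (log2 ratio -1.18, SE 0.54, edgeR adjusted p = 0.177).

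The core complex genes Fanca, Fancb and Fancc had log2 ratios of -0.13 (SE 0.64), -0.60 (SE 0.44) and 0.085 (SE 0.34), and the helicase gene Brip1 of -0.76 (SE 0.51). Fancc was the steadiest, with 13.7, 17.2 and 15.6 CPM in null cells and 15.4, 16.6 and 12.5 CPM in controls. Brip1 ran from 1.90 to 19.1 CPM in null cells and from 11.6 to 33.3 CPM in controls, with the unlettered libraries higher in both groups. Fancb is X-linked; it had 5.38, 17.6 and 21.9 CPM in null cells and 12, 16.5 and 17.7 CPM in controls, and null replicate 1 alone was low.

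End joining and single-strand break repair held the 1 gene whose null libraries all lay above the controls. Xrcc1, the scaffold of single-strand break repair, had 41.7, 47.6 and 38.0 CPM in null cells and 31.7, 29.1 and 27.2 CPM in controls, a mean of 42.5 ± 4.85 CPM in null cells and 29.3 ± 2.26 CPM in controls (SD, n = 3 each). The log2 ratio was 0.56 (SE 0.23), 1.47 times the control, with an edgeR adjusted p of 0.146 set-adjusted and 0.392 with group alone. It did not pass in any of the 12 fits, in which its log2 ratio ran from 0.42 to 0.65.

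Parp1, which signals strand breaks and works with Xrcc1, lay on the other side of 0. It had 36.1, 57.2 and 73.0 CPM in null cells and 63.9, 105 and 90.5 CPM in controls, so that null replicate 3 overlapped with control replicate 1 (log2 ratio -0.85, SE 0.27, edgeR adjusted p = 0.0571; 0.0459 by RLE size factors). Without null replicate 3 it passed (edgeR adjusted p = 0.0185). Without the other libraries in turn it did not (edgeR adjusted p = 0.0628 to 0.489, the highest at a log2 ratio of -0.48 without null replicate 1). It also passed with no filter, without globins and by DESeq2. With group alone the log2 ratio was -0.64 (edgeR adjusted p = 0.429). The genes of end joining did not pass. Xrcc6 and Xrcc5, which encode the ring that binds free ends, had log2 ratios of -0.30 (SE 0.17) and -0.20 (SE 0.18), and Prkdc, its kinase, of -0.43 (SE 0.33). Lig4, the ligase, was counted near the bottom of the range, with 7.01, 1.08 and 1.03 CPM in null cells and 1.63, 3.67 and 2.88 CPM in controls, and its log2 ratio was -0.013 (SE 0.73).

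Msh6, which recognises mismatched bases, fell set-adjusted. It had 23.1, 51.8 and 38.4 CPM in null cells and 37.2, 34.0 and 86.3 CPM in controls. The groups overlapped across sets, while within each set every null library lay below the controls. The log2 ratio was -0.78 (SE 0.22, edgeR adjusted p = 0.0391), and -0.48 with group alone (edgeR adjusted p = 0.720). Without null replicate 3 the call held, and without any of the other 5 libraries it was lost at edgeR adjusted p = 0.0618 to 0.288. Rad18, the ligase that marks Pcna for lesion bypass, had 52.7, 45.8 and 64.9 CPM in null cells and 83.3, 73.6 and 59.8 CPM in controls. Null replicate 3 overlapped with the controls (log2 ratio -0.34, SE 0.22).

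The title set separated 6 of the 41 genes, all of them lower in the unlettered set (14.6%, against 17.7% of all tested genes), and 0 were higher in it, against 10.9%. These were Wee1, Topbp1, Nbn, Rnf8, Rnf168 and Msh6. The widest gap was that of Rnf8, with 7.36 CPM in null replicate 1 and at most 12.6 CPM in control replicates 1 and 2, against 51.1 and 50.8 CPM in null replicates 2 and 3 and 57.6 CPM in control replicate 3. Its log2 ratio of unlettered over lettered was -2.55, and 26.2% of its annotated exon bases are shared with the gene model Gm28043 on the same strand. For Rnf8, group alone gave a log2 ratio of 0.43 and set-adjusted -0.40, since 2 of 3 null libraries and 1 of 3 controls were in the set with the higher level.

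Whether the null-control ratio differed between the sets was tested as an interaction. For 0 of the 41 genes did it pass by edgeR's quasi-likelihood test (0.00951% of all genes did). At an unadjusted p under 0.05 there were 3, Wee1, Fanca and Fancb (7.32%, against 7.21% of all genes). Of the 5 genes called lower, Chek1 had log2 ratios of -1.61 (unlettered) and -0.72 (lettered), Mdc1 of -0.50 and -1.53, and Exo1 of -0.74 and -2.0. Mre11a (-1.06 and -0.95) and Msh6 (-0.62 and -0.95) were closer between the sets.

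**Figure D4:**
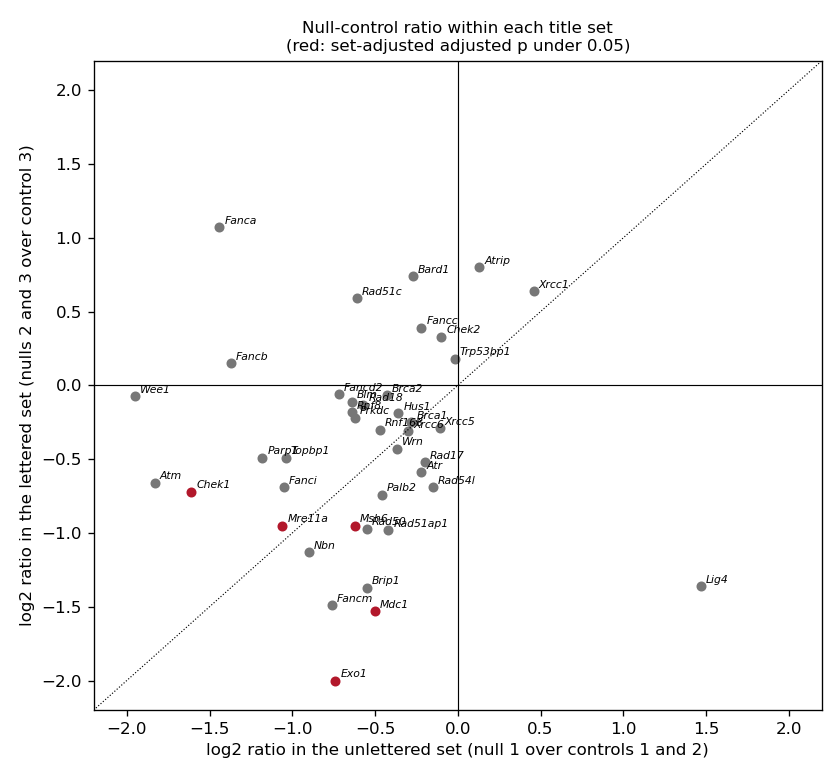
Log2 ratio of null over control within the unlettered set (horizontal, null 1 over controls 1 and 2) and within the lettered set (vertical, nulls 2 and 3 over control 3), 1 point per gene. Most genes lie below 0 on both axes, Xrcc1 and Atrip above 0 on both, and Fanca and Lig4 lie far out in opposite quadrants.

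A wider list of 120 other repair and checkpoint genes was set beside the 41. Of 117 that were tested, 5 rose and 5 fell set-adjusted, where 8.65% of all tested genes rose and 4.16% fell. The share that fell was thus near that of all tested genes, and the share that rose was below it. The median log2 ratio was -0.22. With group alone 1 rose and 0 fell, where 1.14% of all tested genes rose and 0.00951% fell. The largest rises were those of Polk, a polymerase of lesion bypass, with 56.1, 55.1 and 46.6 CPM in null cells and 8.60, 9.05 and 2.46 CPM in controls (log2 ratio 3.47, SE 0.39, edgeR adjusted p = 0.000253), and of Ercc5, an endonuclease of nucleotide excision repair, with 52.9, 68.2 and 58.5 CPM in null cells and 7.26, 13.4 and 13.3 CPM in controls (log2 ratio 2.29, SE 0.28, edgeR adjusted p = 0.000407). Neither gene overlapped between the groups, and Ercc5 was the gene that also passed with group alone (edgeR adjusted p = 0.0321). The ubiquitin ligase gene Rnf169 (log2 ratio 2.28), the ubiquitin-conjugating enzyme gene Ube2b (0.86) and the glycosylase gene Mpg (0.79) rose as well.

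The 5 that fell were H2afx, the histone to which Mdc1 binds (log2 ratio -1.67), Tonsl (-1.57), Rif1, which acts with Trp53bp1 (-1.41), and Usp1 with its cofactor Wdr48, which remove ubiquitin from Fancd2 and Fanci (-1.20 and -0.95). Rif1 had 34.6, 24.2 and 29.0 CPM in null cells and 76.6, 64.8 and 92.1 CPM in controls, with no overlap (edgeR adjusted p = 0.00229; 0.0669 with group alone). H2afx followed the title sets, with 2.34, 68.9 and 63.1 CPM in null cells and 7.71, 6.02 and 224 CPM in controls.

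Other measures moved with the group in the same libraries. For the counts of calls below, 4.16% of all tested genes fell and 8.65% rose set-adjusted. Tested were all 12 cell cycle genes, 6 of 9 macrophage, 2 of 6 endothelial, 3 of 5 megakaryocyte and 9 of 10 erythroid genes. A list of 12 cell cycle genes summed to 2858, 2665 and 3257 CPM in null cells and 4526, 4346 and 4337 CPM in controls, and 6 of them fell and 0 rose set-adjusted. Relative to its own set the null level of that sum was -0.63 (unlettered) and -0.55 (lettered) on the log2 scale, and that of the 41 genes -0.52 and -0.39. Its part in the lower repair genes was not tested. Of 9 macrophage markers 3 rose (Csf1r, Cd68 and C1qb), with sums from 31.1 to 89.5 CPM in null cells and from 1.81 to 10.6 CPM in controls; Emr1 was at 0 in all 3 controls and from 0 to 2.58 CPM in null cells. Of 6 endothelial markers 2 rose (Pecam1 and Tek), with sums from 5.58 to 19.5 CPM in null cells and from 0.32 to 1.49 CPM in controls, while Cdh5 and Emcn stood between 0 and 0.0517 CPM in every library. Of 5 megakaryocyte markers 1 rose, Itga2b, with sums from 40.5 to 81.4 CPM in null cells and from 14.2 to 30.4 CPM in controls. Itga2b alone made up 36.6, 67.1 and 50.1 CPM of the null sums; Gp9 lay at 3.74 to 4.47 CPM in null cells and 4.60 to 6.08 CPM in controls and did not pass, and Ppbp was at 0 in null cells and at most 0.651 CPM in controls. The 5 hepatic markers summed to at most 3.86 CPM in null cells and 3.30 CPM in controls, none was tested, and Alb was at 0 in every library. The part of these cell types in the results was not tested. Of 10 erythroid genes 3 fell and 0 rose set-adjusted. These were Tfrc, which encodes CD71 (log2 ratio -0.92), Epor (-1.08) and the globin gene Hba-x (-0.60). With group alone their edgeR adjusted p was 0.184, 0.633 and 0.590. Epor is the locus that drives Cre, and control replicate 2 carries no Cre there. Its level was 34.5, 91.3 and 84.6 CPM in null replicates 1, 2 and 3 and 52.3, 118 and 158 CPM in control replicates 1, 2 and 3. The part of the Cre allele in the Epor ratio was not tested. Sums of the 10 ran from 212633 to 503945 CPM in null cells and from 346230 to 524459 CPM in controls. Alas2, which encodes the first enzyme of heme synthesis in red cells, did not pass. It stood at 2500 to 3060 CPM in null cells and 2288 to 3016 CPM in controls.

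**Figure D5:**
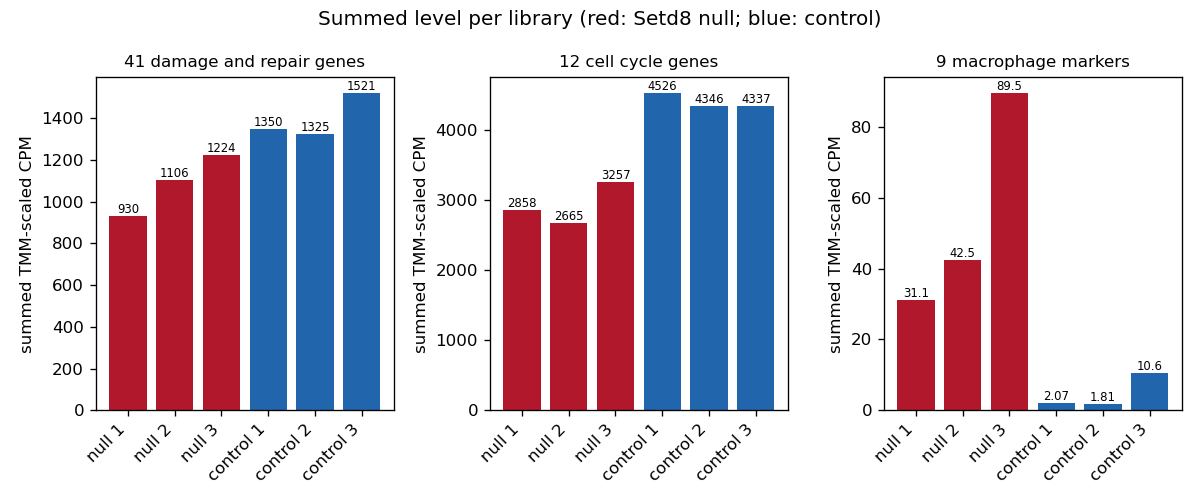
Summed TMM-scaled CPM per library for the 41 damage and repair genes, 12 cell cycle genes and 9 macrophage markers, with the 3 null libraries (red) left of the 3 controls (blue). The first 2 sums are lower and the third is higher in every null library than in any control.

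Levels can be compared between the genes only per length, here CPM per kilobase of annotated exon. Xrcc6 was the highest in controls, at 26.4 per kilobase in null cells and 31.1 in controls, and Lig4 the lowest in both groups, at 0.584 in null cells and 0.524 in controls. Next in controls came Rad51ap1 (17.4 in null cells, 28.6 in controls), Chek2 (26.7 and 27.2, the highest of the 41 in null cells) and Rad18 (20 and 26.6). The large kinase genes stood near the bottom, with Atr at 1.70 and 1.92, Atm at 0.643 and 1.61 and Prkdc at 1.15 and 1.28 per kilobase in null cells and controls. Of the genes that fell, Chek1 and Msh6 lay in the upper part of the order in controls (13.2 and 12.4 per kilobase) and Exo1, Mre11a and Mdc1 in the middle (5.73, 4.90 and 4.44).

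Promoter sequences were read for 34 of the 41 genes from RefSeq (GRCm38.p6), from 250 bases before to 50 after the annotated start. For 4 of the 34 genes 2 windows are listed, and the counts below use the first listed window of each gene. Each was searched on both strands for fixed letters that match sites of known factors: E2F (TTTCCCGC, TTTGGCGC, TTTCGCGC or TTTGCCGC), NF-Y (CCAAT), CHR (TTTGAA or TTCGAA), NRF1 (GCATGCGC), CRE (TGACGTCA) and the E-box (CACGTG). E2F factors are known to drive genes of DNA replication. E2F letters stood in 8 of the 34 windows (23.5%), against 4.55% of the 8492 tested genes with a window and 5.49% of 91 other repair genes. These were the windows of Chek2, Topbp1, Mdc1, Brca2, Bard1, Rad51c, Xrcc6 and Msh6, of which Mdc1 and Msh6 fell. CCAAT stood in 20 windows (58.8%, against 40.1%) and the NRF1 letters in 5 (14.7%, against 6.19%). The CRE was in 2 (5.88%, against 3.63%), the CHR in 4 (11.8%, against 14.0%) and the E-box in 2 (5.88%, against 10.9%). A match of letters is a description and not a binding site.

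The windows of 4 genes that fell and of Xrcc1 are printed to show what stands around the start of each; matched letters are in capitals, and the strand is that of the gene.
Mdc1, chr17:35841248-35841547, plus strand, E2F and NF-Y letters: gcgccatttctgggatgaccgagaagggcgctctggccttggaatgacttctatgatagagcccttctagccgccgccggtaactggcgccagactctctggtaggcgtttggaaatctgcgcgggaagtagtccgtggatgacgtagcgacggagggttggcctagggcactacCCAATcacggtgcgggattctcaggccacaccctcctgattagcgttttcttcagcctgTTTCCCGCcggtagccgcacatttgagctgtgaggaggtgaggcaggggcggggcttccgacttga
Msh6, chr17:87974800-87975099, plus strand, NF-Y and E2F letters: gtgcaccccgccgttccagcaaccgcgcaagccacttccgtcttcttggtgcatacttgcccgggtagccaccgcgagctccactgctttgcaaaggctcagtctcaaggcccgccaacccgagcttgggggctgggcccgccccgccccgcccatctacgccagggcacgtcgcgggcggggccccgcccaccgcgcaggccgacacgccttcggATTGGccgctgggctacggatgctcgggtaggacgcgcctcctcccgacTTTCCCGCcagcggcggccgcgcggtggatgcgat
Mre11a, chr9:14784404-14784703, plus strand, NF-Y letters: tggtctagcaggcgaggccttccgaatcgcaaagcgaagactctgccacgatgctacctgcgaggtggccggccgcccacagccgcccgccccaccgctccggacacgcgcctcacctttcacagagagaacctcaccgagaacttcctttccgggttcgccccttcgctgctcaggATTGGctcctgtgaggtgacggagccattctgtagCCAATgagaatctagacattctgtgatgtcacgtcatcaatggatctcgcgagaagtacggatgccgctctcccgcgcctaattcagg
Chek1, chr9:36726609-36726908, minus strand, no match: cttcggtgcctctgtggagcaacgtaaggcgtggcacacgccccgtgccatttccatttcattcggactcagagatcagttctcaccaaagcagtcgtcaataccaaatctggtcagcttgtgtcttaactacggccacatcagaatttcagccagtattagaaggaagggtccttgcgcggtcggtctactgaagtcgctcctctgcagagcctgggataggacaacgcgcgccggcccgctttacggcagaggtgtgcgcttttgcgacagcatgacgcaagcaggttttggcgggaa
Xrcc1, chr7:24546449-24546748, plus strand, NF-Y letters: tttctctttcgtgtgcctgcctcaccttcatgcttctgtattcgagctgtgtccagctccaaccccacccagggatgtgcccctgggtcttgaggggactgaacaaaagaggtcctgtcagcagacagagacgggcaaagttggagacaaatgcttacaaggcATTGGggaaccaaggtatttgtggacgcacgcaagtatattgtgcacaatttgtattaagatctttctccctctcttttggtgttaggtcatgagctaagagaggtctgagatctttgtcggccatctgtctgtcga

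In Mdc1 the E2F letters TTTCCCGC began at base 235 of the 300 in the window, before the start, and in Msh6 the same letters began at base 266, after it. Mre11a held CCAAT on each strand, beginning at bases 178 and 213. The Chek1 window ends in the letters gcgggaa. These are GCGGGAAA, the E2F letters read on the other strand, short of the last base. That base would lie outside the window and was not read. The Xrcc1 window held NF-Y letters at base 164 and no E2F letters.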

How the data were processed

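Polyadenylated RNA from 3 Setd8 null and 3 control samples was used as gene counts that the authors deposited, whole numbers per symbol not normalized. Tools named, per the submitters' processing notes, are FastQC, Trimmomatic (0.32), TopHat2 (2.1.0), HTSeq (0.6.1) and edgeR, with build mm9; the sources used here give neither their options nor the strand setting. In the unlettered tables, reads of no feature made up 6.07% in null replicate 1 and 42.9% and 7.72% in control replicates 1 and 2; such lines were left out, and 25 symbols turned into dates were mapped back to gene names. With 3 counts at 0.140 to 0.387 CPM, depth limits low genes.

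Counts were fitted in R 4.3.3 with edgeR 4.0.16 (filterByExpr by group, TMM, robust glmQLFit and glmQLFTest, 2-sided; SE as the log2 ratio over the root of F). Residual degrees of freedom were 3 set-adjusted (common biological variation, as a CV, 0.399), 4 with group alone (0.613) and 2 for the interaction. Ratios within a set subtract mean log2 CPM (prior count 2). DESeq2 1.42.0, RLE scaling, no filter, globins left out and each library left out were tried. In simulated data for 10512 genes, 67, 67 and 66 genes were changed 1.5, 2 and 4-fold. The set-adjusted test recovered 6.0%, 19.4% and 66.7% of them, with 3 false calls. Far fewer genes were changed there than the 12.8% called in the data, so recovery in the data may differ. Pairs of libraries within a group gave chi-square values of 21.9 to 369 times their degrees of freedom, so none was a duplicate. Control replicate 2 differs in genotype from the other controls and so came from other embryos; whether samples of like genotype did is not stated in the labels, so p-values reflect sample-to-sample spread, part of which may be technical.

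The 41 genes and all lists were chosen with earlier results of these data known. Values in every library are given for genes that passed a test or whose groups did not overlap, and for the largest and smallest ratio of each role; Wee1, Topbp1, Nbn, Rnf8, Fanca, Fancb, Fanci, Bard1 and Brip1, and the 4 other repair genes given by library (of the 10 that passed), were picked after their values were seen. Exon lengths and overlaps come from GENCODE M21 (GRCm38), another build than that of the counts. Of the 120 other genes, 7 were matched through older symbols.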

Additional observations from a re-analysis of the deposited data

Results flagged for a closer look

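For 6 of the 41 genes every null library lay on one side of the controls in the unlettered set and on the other side in the lettered set, a pattern that 13.9% of all tested genes show. The difference of the log2 ratios, unlettered minus lettered, was tested as an interaction by edgeR's quasi-likelihood test and passed for 0 of them. It was -2.61 for Fanca (unadjusted p = 0.0106, edgeR adjusted p = 0.585), which had 4.91, 26.5 and 13.9 CPM in null cells and 12.6, 14.4 and 9.12 CPM in controls. It was 2.82 for Lig4 (edgeR adjusted p = 0.726), a gene of low counts at which null replicate 1 alone was high. It was -1.34 for Rad51c, which had 1.69, 3.95 and 8.27 CPM in null cells and 2.82, 2.50 and 3.77 CPM in controls, and -1.05 for Bard1, with 6.90, 8.63 and 5.89 CPM in null cells and 8.74, 7.93 and 4.23 CPM in controls. For Fancc and Trp53bp1 it was -0.62 and -0.20 (edgeR adjusted p = 0.894 and 0.977). The lettered set holds 1 control and the unlettered set 1 null library, so that each of these patterns rests on both of those libraries.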

How the results depend on the processing

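No paired analysis was possible because the labels give no replicate numbers that the groups share. All 41 genes were tested under each alternative. With group alone 120 genes were higher and 1 lower over all genes, 0 of the 41 lower, 1 other repair gene higher and 0 lower, and the median log2 ratio of the 41 was -0.32. By DESeq2, 882 genes (8.39% of all tested) were lower, 9 of the 41 and 12 other repair genes. With no filter 723 of 19008 genes (3.80%) were lower, 11 of the 41 and 11 other repair genes. RLE size factors gave 8 of the 41 and 8 other repair genes lower, where 4.95% of all genes were. Leaving globins out gave 9 and 8, where 5.14% of all genes were lower. The 5 genes called lower kept their call under these 4 alternatives. Without 1 library, 162 to 869 genes were higher and 40 to 734 lower, both lowest without null replicate 1; 1 to 7 of the 41 were lower, 2 to 5 other repair genes higher and 2 to 10 lower, and the median log2 ratio of the 41 ran from -0.58 to -0.31. In the 12 fits 0 of the 41 rose. By raw library totals the log2 ratio of their summed CPM was -0.15, against -0.36. Directions of uncalled genes that turned were, with group alone, Chek2 (-0.026), Wee1 (0.15), Trp53bp1 (-0.0035), Rnf8 (0.43), Rnf168 (0.068), Fanca (0.33) and Lig4 (0.14), and without globins Rad51c (-0.0076). Without 1 library the log2 ratio ran from -0.13 to 0.32 for Chek2, -0.035 to 0.17 for Trp53bp1, -0.29 to 0.77 for Bard1, -0.66 to 0.69 for Rad51c, -1.48 to 1.14 for Fanca, -1.42 to 0.15 for Fancb, -0.24 to 0.39 for Fancc and -1.45 to 1.37 for Lig4. Of single-gene results, 380 kept direction and side of the threshold, 26 lost and 21 gained a call, and 24 turned. The cause was not tested; leaving out a library also leaves fewer samples.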
